A study of Mus musculus with 16 samples.

Results

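The choroid plexus genes described here are 9 genes listed as marks of the choroid plexus epithelium, Ttr, Kl, Folr1, Clic6, Otx2, Sostdc1, Enpp2, Prlr and Calml4. Their levels in the hypothalamus of 16 mice were read on 16 arrays of the Illumina MouseRef-8 v2 type, with a separate array for each mouse. All probes annotated to the 9 symbols were taken. Of the 9 genes, 7 had a named probe, among 16593 genes with a named probe, and 9 probes in all among the 25697 of the array. The tested probes were ILMN_2443330 for Ttr, ILMN_1253148 for Kl, ILMN_2667635 for Clic6, ILMN_2691752 for Otx2, ILMN_2642800 for Sostdc1 and ILMN_1246573 for Calml4, and those of Folr1 were ILMN_2707541 and ILMN_3000679. Kl and Folr1 each had 2 probes, and Ttr, Clic6, Otx2, Sostdc1 and Calml4 had 1 each. For Enpp2 and Prlr no probe carried the name in the annotation used, so neither gene was analysed here, and how they follow the other members could not be read. A probe was tested if it was detected above the negative controls of its array on at least 8 of the 16 arrays, which 14870 probes met. The probes of 6 members met it, those of Ttr, Clic6, Otx2, Sostdc1 and Calml4 and 1 probe of Kl.

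The mice were female C57BL/6J animals of the first generation, 21 days old. In the 8 control mice (CON) the mothers ate freely during lactation. In the 8 mice of the lactation under-nutrition group (LUN) the mothers received 50% of the control food. All litters had been set to 8 pups. Arrays are named by group and replicate number, and each of the 2 BeadChips carried 4 CON and 4 LUN arrays. The dissected block lay around the third ventricle and was bulk tissue, so more cells of a type and more RNA per cell cannot be told apart. CON and LUN arrays always took different positions on a BeadChip, so group and position cannot be told apart either. Which mice were littermates is not stated in the sources read. The methods give fewer CON litters than there were CON arrays, so if these litters are the ones sampled, some CON mice shared a litter and the p-values are too small.

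The choroid plexus is a folded epithelium that hangs into the brain ventricles and makes cerebrospinal fluid. One of its fronds hangs from the roof of the third ventricle, beside the habenula and above the thalamus. Its cells are known for very high Ttr, which encodes transthyretin, the carrier of thyroxine and, with its partner Rbp4, of retinol. Folr1 encodes the receptor that carries folate into the fluid, and Kl encodes klotho, a co-receptor for fibroblast growth factor 23. Clic6 belongs to the chloride intracellular channel family, and Sostdc1 is a secreted inhibitor of bone morphogenetic protein (BMP) and Wnt ligands. Calml4 is a calmodulin-like protein of the microvillous border. Otx2 is a homeobox transcription factor needed to form and keep this epithelium, and it also acts in other parts of the brain. Enpp2, or autotaxin, makes lysophosphatidic acid, and Prlr is the prolactin receptor.

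RefSeq start-site windows on GRCm38.p6, from 250 bases before to 50 bases after a start, were found for 3 of the 7 measured members. They are shown because Otx2 protein is known to bind the letters TAATCC, and these are members whose values are set beside those of Otx2 below. The motif was searched on both strands as TAATCC and GGATTA, with matches in capitals, and 7.06% of 32851 windows of this length held it. Kl is at chr5:150952357-150952656, plus strand, with 0 matches. Calml4 is at chr9:62857854-62858153, plus strand, with 0 matches. Otx2 has 4 windows, and the 1 with a match is shown, at chr14:48665060-48665359, minus strand.
Kl: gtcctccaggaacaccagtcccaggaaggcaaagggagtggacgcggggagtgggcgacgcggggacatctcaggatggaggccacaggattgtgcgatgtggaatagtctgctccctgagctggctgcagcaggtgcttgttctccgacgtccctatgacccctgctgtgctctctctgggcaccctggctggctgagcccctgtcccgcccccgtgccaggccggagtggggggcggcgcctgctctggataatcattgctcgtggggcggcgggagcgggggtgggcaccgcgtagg
Calml4: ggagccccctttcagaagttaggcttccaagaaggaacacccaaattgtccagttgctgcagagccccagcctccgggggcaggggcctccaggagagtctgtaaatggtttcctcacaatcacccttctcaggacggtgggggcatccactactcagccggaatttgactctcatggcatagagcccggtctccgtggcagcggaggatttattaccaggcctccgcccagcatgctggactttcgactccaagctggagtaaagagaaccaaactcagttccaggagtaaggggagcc
Otx2: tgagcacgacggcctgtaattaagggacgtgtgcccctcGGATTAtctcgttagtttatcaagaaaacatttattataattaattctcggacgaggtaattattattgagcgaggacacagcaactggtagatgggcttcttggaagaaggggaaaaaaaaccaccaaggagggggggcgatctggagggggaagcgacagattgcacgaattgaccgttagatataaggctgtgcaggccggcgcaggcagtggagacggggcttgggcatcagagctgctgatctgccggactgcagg
A match describes the letters only, and a window without one says nothing of the factor.

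Before normalization the CON arrays were brighter. The mean signal per array was between 394 and 516 in CON (median 446) and between 351 and 414 in LUN (median 371), with 7 of 8 CON arrays above every LUN array, and 14540 to 15384 probes were detected per array. All 13 named genes of a list of hypothalamic peptides and of the regulator Nkx2-1 passed the detection filter, so markers of the labelled tissue were present. The values below are log2 intensities after background correction and quantile normalization, and 1 unit is a doubling. Since each probe has its own brightness, levels of different genes were not compared.

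Array LUN 7 was the highest of the 16 in every tested choroid plexus gene. On it Ttr, Kl, Clic6, Otx2, Sostdc1 and Calml4 each had their highest value, 6 of 6. The next array was nearer to it in some of these genes, such as Calml4 (6.33 against 6.71), than in others, such as Sostdc1 (6.88 against 7.70). Over all tested probes 6.04% had their highest value on LUN 7. Folr1, below the filter, was detected on LUN 7 alone. A second array, LUN 1, had high Ttr, with no other member above its range on the other arrays.

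Ttr had the widest range of the members. In CON its log2 value was 6.17 at the lowest (CON 6), 8.00 at the median and 10.70 at the highest (CON 4). In LUN it was 7.64 at the lowest (LUN 6), 8.38 at the median and 14.19 at the highest (LUN 7), with LUN 1 second at 12.74. The groups overlapped, since the other 6 LUN arrays, from 7.64 to 9.69, lay inside the CON range. In signal as deposited, Ttr ran from 123 to 1771 in CON and from 216 to 17050 in LUN. LUN 7 was 5.96 above the median of the other 7 LUN arrays, or 62.2-fold. LUN 1 was 4.50 above the median of its 7 others, or 22.7-fold, and CON 4 was 2.77 above the median of the other CON arrays.

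The secreted inhibitor Sostdc1 had a narrow range apart from LUN 7. In CON it was 6.14 at the lowest, 6.47 at the median and 6.88 at the highest. In LUN it was 6.24 at the lowest, 6.39 at the median and 7.70 on LUN 7. The next LUN array was at 6.46, so 7 LUN arrays lay within the CON range and LUN 7 lay 1.36 above their median.

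Kl was 6.22 at the lowest, 6.76 at the median and 7.12 at the highest in CON (CON 3). In LUN it was 6.13 at the lowest, 6.30 at the median and 7.62 at the highest (LUN 7), with LUN 1 second at 6.69. Without LUN 7 and LUN 1 the LUN arrays lay between 6.13 and 6.33, below 7 of the 8 CON arrays. The second Kl probe was detected on 0 of 16 arrays and carried no reading of the gene.

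Clic6 was 8.13 at the lowest (CON 4), 8.55 at the median and 8.89 at the highest (CON 3) in CON. In LUN it was 8.18 at the lowest, 8.35 at the median and 9.43 on LUN 7. Calml4 was 5.70 at the lowest, 5.93 at the median and 6.33 at the highest (CON 4) in CON. In LUN it was 5.29 at the lowest (LUN 4), 5.76 at the median and 6.71 on LUN 7. In both genes the groups overlapped, and LUN 7 was the only LUN array above the CON range.

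Otx2 differed from these in that LUN arrays other than LUN 7 also lay high. In CON it was 6.23 at the lowest (CON 1), 6.61 at the median and 7.28 at the highest (CON 4). In LUN it was 6.71 at the lowest (LUN 5), 7.12 at the median and 8.05 at the highest (LUN 7), with LUN 6 second at 7.44. Of the 8 LUN arrays, 6 were above every CON array but CON 4.

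Both Folr1 probes were at the level of the background on 15 arrays. The brighter read 4.39 to 4.84 in CON and 4.54 to 4.70 on the LUN arrays other than LUN 7, where it read 5.94. The other read 4.40 to 4.78 in CON, and 5.59 on LUN 7. Below detection the values have no order, so only the reading on LUN 7 carries information on this gene.

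**Figure D1:**
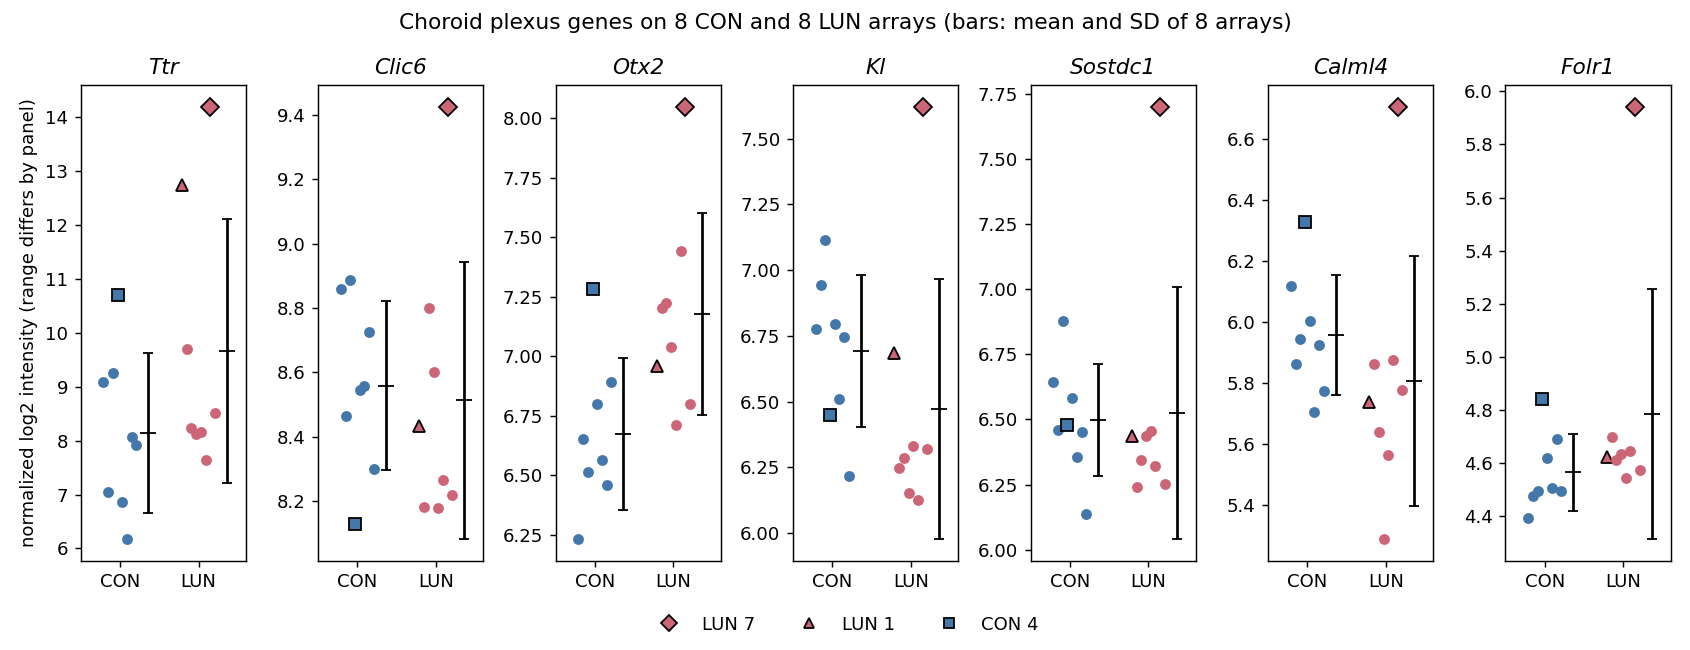
Normalized log2 intensity (vertical axis, with its own range in each panel) of the brightest probe of 7 choroid plexus genes on 8 CON (blue) and 8 LUN (red) arrays, with 1 point per array and bars for the mean and SD. LUN 7 (diamond) is the highest array in each panel, while LUN 1 (triangle) is high for Ttr, at 12.74, and within the other arrays for the rest.

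The label of the genes was checked against other choroid plexus genes. Of 29 further genes listed for this epithelium, 26 had a named probe and 14 were tested. On LUN 7, 8 of the 14 had their highest value of 16 arrays, against 6.04% of all tested probes. These 8, named after their values were seen, were Ecrg4, Aqp1, Kcne2, Wfdc2, Rbm47, Msx1, Cldn1 and Cab39l. Ecrg4, a secreted peptide precursor, was 2.85 above the median of the other 7 LUN arrays. Aqp1, the water channel of the fluid-facing membrane, was 2.15 above it, and Kcne2, a potassium channel subunit, 1.62. The median excess of LUN 7 over the other LUN arrays was 0.84 over the 14 genes, against -0.01 over all tested probes. Of 16 probes of the 12 listed genes below the filter, 7 were detected on LUN 7, against 5.07% of all probes below the filter. They included Cldn2, the claudin of this leaky epithelium, at 6.27 on LUN 7 and at most 4.93 elsewhere, and the carbonic anhydrase gene Car12, at 5.95 on LUN 7 and at most 5.38 elsewhere. The listed genes did not all rise there, since Slc29a4, Lmx1a and Igfbp2 on LUN 7 lay within the range of the 6 LUN arrays other than LUN 1 and LUN 7.

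Some genes of neighbouring tissue were also high on LUN 7. All 9 tested genes of the ependyma and tanycyte list, cells that line the ventricle, were above the median of the other LUN arrays. The excess ran from 0.04 to 0.86, with a median of 0.45 against -0.01 over all tested probes. Of the 9, 2 were highest on LUN 7, against 6.04% of all tested probes. Of 4 tested habenula genes, Gpr151 was 2.84 and Gng8 1.64 above the median of the other LUN arrays, with Gng8 still inside their range. Tac1 and Tac2 were 0.01 and 0.15 above that median. The summed level of the habenula list, its mean after centring each gene, ran from -0.49 to 0.97 in CON and from -0.41 to 0.93 in LUN. It was highest on CON 4, LUN 7 and LUN 6, in that order. Thalamus genes on LUN 7 were 0.05 above the other LUN arrays at the median, and meninges genes -0.11. The part of these cell types in the LUN 7 values was not tested.

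LUN 1 shared the high Ttr of LUN 7 but little of its excess in the other members. Its Kl was 0.4 above the median of the other LUN arrays and its Clic6 0.17. Its Sostdc1 was 0.09 above it, its Calml4 -0.04 and its Otx2 -0.24. Over all tested probes 4.36% had their highest value on LUN 1, and 0 of 6 members did. Among the other choroid plexus genes Aqp1 was 0.95, Ecrg4 0.76 and Kcne2 0.53 above the other LUN arrays, with a median of 0.11 over 14. The ependyma list had its second-lowest summed level of 16 arrays on LUN 1, -0.23, and its highest on LUN 7, 0.33.

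A further comparison used linear intensities, in which the excess of LUN 1 over the median of the 6 LUN arrays other than LUN 1 and LUN 7 was set against that of LUN 7. For Ttr the median of the 6 was 293, LUN 1 was at 6842 and LUN 7 at 18750, so the excess of LUN 1 was 35.5% of that of LUN 7. For Kl the share was 21.6%, for Clic6 11.2%, for Sostdc1 4.7% and for Calml4 1.91%. For Otx2 LUN 1 was below the 6 others, and the share was -11.9%. Over the 11 other choroid plexus genes that on LUN 7 were above these 6 arrays, the share ran from -25.4% for Cdkn1c to 45.8% for Slc13a4, with Aqp1 at 27.2%, Kcne2 at 21.9% and Ecrg4 at 12.9%. The members thus did not keep a single proportion between the 2 arrays, and LUN 1 was inside the range of the 6 others for 4 of 6 members. The intensities of bright probes may be compressed, and no error can be given for a single array.

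CON 4 was the CON array highest in Ttr, Otx2 and Calml4 and lowest in Clic6. Neither Folr1 probe was detected on CON 4, so their readings there carry no information on this gene. Of the other choroid plexus genes, named after their values were seen, Ecrg4 was second of 16 arrays on CON 4, at 7.78. Kcne2 at 5.35 and Msx1 at 6.30 were also second there, while Aqp1 was number 5. The summed level of the 14 other choroid plexus genes was 0.14 on CON 4, below LUN 7 at 0.76 and CON 2 at 0.20. Of the members, Kl was number 9 of 16 on CON 4 and Sostdc1 number 5. Gpr151 was 8.68 on CON 4 and between 4.71 and 5.93 on the other CON arrays.

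**Figure D2:**
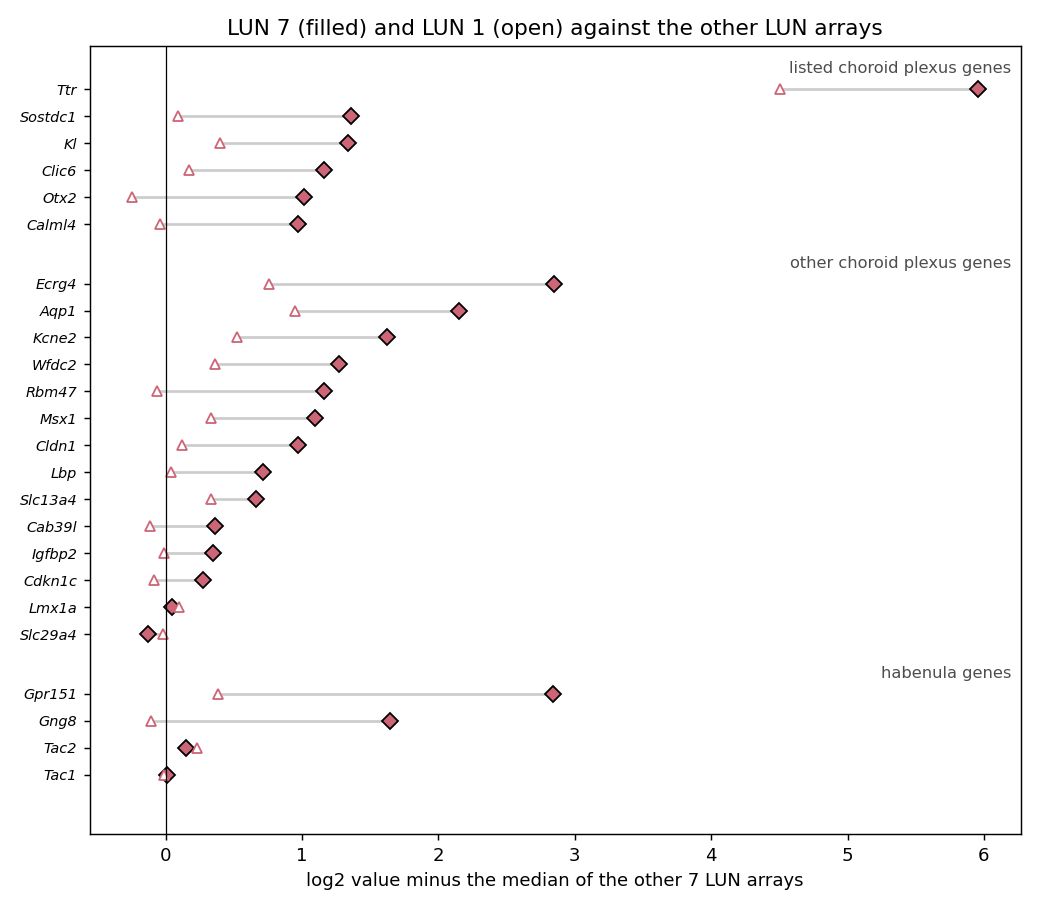
Difference in log2 value from the median of the other 7 LUN arrays (horizontal axis) for LUN 7 (filled diamonds) and LUN 1 (open triangles), for 6 listed choroid plexus genes, 14 other choroid plexus genes and 4 habenula genes. LUN 7 is to the right of 0 for all of the listed genes, from 0.97 to 5.96, whereas among these LUN 1 is far from 0 only for Ttr. Among the other choroid plexus genes LUN 1 reaches 0.95, for Aqp1, with a median of 0.11.

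The first question was whether the choroid plexus genes differed between LUN and CON. None of the 6 tested members passed an adjusted p of 0.05 in limma over 14870 probes. The background was 2231 probes called, 15% of all, with 6.92% higher and 8.08% lower in LUN. CON and LUN values overlapped for all 6 members, and did not overlap for 2.06% of probes. The direction split depended on scaling, since 46.1% of calls were higher in LUN after quantile normalization but 12.6% after median scaling, and 2.08% without normalization, where the median probe changed by -0.25.

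Ttr was 8.14 ± 1.48 in CON and 9.66 ± 2.45 in LUN (SD, n = 8 each). LUN minus CON was 1.52 with a standard error (SE) of 0.90 (limma adjusted p = 0.269), with a 95% interval from -0.36 to 3.41. Without LUN 7 the difference was 0.88 (adjusted p = 0.475), and without LUN 1 and LUN 7 it was 0.26 (adjusted p = 0.828). The interval without both arrays ran from -0.96 to 1.47, so the arrays left a wide range for Ttr even then.

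Otx2 came closest to the threshold. It was 6.67 ± 0.32 in CON and 7.18 ± 0.42 in LUN (SD, n = 8 each), a difference of 0.50 with an SE of 0.17 (limma adjusted p = 0.0526). The difference was 0.44 on BeadChip 1 and 0.57 on BeadChip 2. Leaving out CON 4 gave 0.59 (adjusted p = 0.0177) and CON 8 gave 0.54 (0.0484). Leaving out LUN 5 gave 0.57 (0.0313) and LUN 8 gave 0.56 (0.0388). Each of these 4 brought Otx2 past the threshold, in fits that called 2561, 2455, 2112 and 2149 of 14870 probes. CON 4 and CON 8 had the highest Otx2 in CON, and LUN 5 and LUN 8 the lowest in LUN. Leaving any of them out therefore had to widen the difference. Leaving out LUN 7 gave 0.38 (adjusted p = 0.0787). Beside these values, the thalamus list had 9 of 10 genes that rose in LUN and 1 that did not pass, against 6.92% of all tested probes called higher. The summed level of that list was between 0.44 and 0.85 on all LUN arrays. Among CON arrays it was 0.81 on CON 4 and 0.40 on CON 8, and between -1.63 and -0.30 on the other 6. CON 4 and CON 8 were also the CON arrays with the highest Otx2, at 7.28 and 6.89. The part of thalamic tissue in the Otx2 difference was not tested.

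Kl was 6.69 ± 0.29 in CON and 6.47 ± 0.50 in LUN (SD, n = 8 each), a difference of -0.22 with an SE of 0.18 (limma adjusted p = 0.444). Without LUN 7 it was lower in LUN by 0.39 with an SE of 0.12 (adjusted p = 0.0391), past the threshold, in a fit that called 12.6% of probes. Without LUN 1 and LUN 7 the difference was -0.45 (adjusted p = 0.0232), with 9.54% of probes called. LUN 7 and LUN 1 had the highest Kl of the LUN arrays, so leaving them out had to lower the difference. Such p-values are no separate test of Kl. On BeadChip 1 it was -0.48 (adjusted p = 0.175) and on BeadChip 2, which held LUN 7, it was 0.03 (adjusted p = 0.963). The hypothalamus list fell in 9 of 13 genes, against 8.08% of all tested probes called lower. The summed level of that list was between -0.23 and 0.52 in CON and between -0.43 and -0.02 in LUN.

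The other 3 members showed differences within the spread between arrays. Clic6 differed by -0.05 (95% interval -0.38 to 0.29, adjusted p = 0.886) and Sostdc1 by 0.03 (-0.33 to 0.38, adjusted p = 0.944). Calml4 differed by -0.15 (-0.46 to 0.16, adjusted p = 0.53), and by -0.28 without LUN 7 (adjusted p = 0.0709). Within BeadChips, Sostdc1 differed by -0.25 and 0.30 and Calml4 by -0.43 and 0.13 on BeadChips 1 and 2, neither past the threshold.

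**Figure D3:**
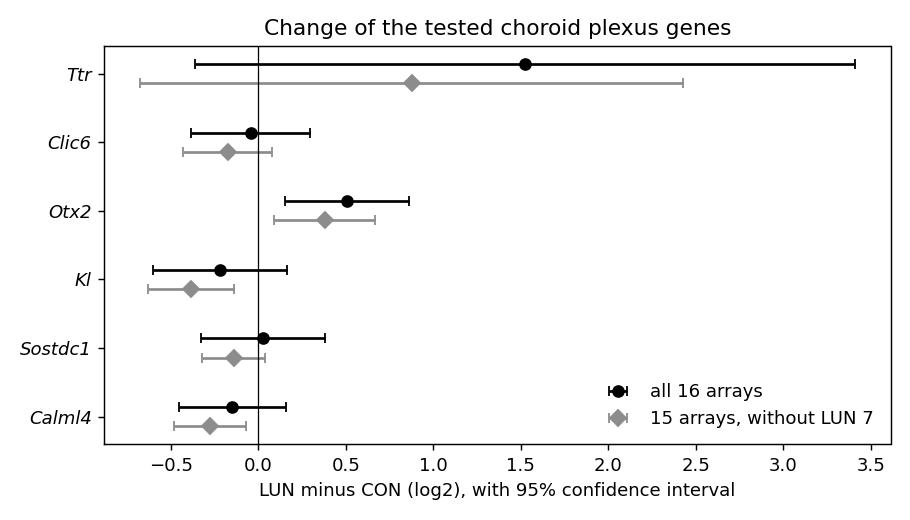
LUN minus CON on the log2 scale (horizontal axis) with 95% confidence intervals for 6 choroid plexus genes, from all 16 arrays (black circles) and from 15 arrays without LUN 7 (grey diamonds). Each estimate moves down without LUN 7, as it must, since LUN 7 was the highest array in each gene. The intervals of Kl, from -0.63 to -0.14, and of Calml4, from -0.48 to -0.07, then lie below 0. That of Otx2 lies above 0 in both fits, from 0.15 to 0.86 and, without LUN 7, from 0.09 to 0.67. The intervals are not adjusted for the number of probes. Of these genes only Kl without LUN 7 passed an adjusted p of 0.05.

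Of the 14 other choroid plexus genes tested, 0 rose and 3 fell, with a median difference of 0.03. Among all tested probes 6.92% were called higher and 8.08% lower. Slc13a4, a sulfate transporter, fell by 0.53 (adjusted p = 0.0214), and Igfbp2, an insulin-like growth factor binding protein, by 0.36 (adjusted p = 0.0395). Slc29a4, a monoamine transporter, fell by 0.31 (adjusted p = 0.00514). None of these 3 was among the genes highest on LUN 7, though Slc13a4 there was 0.66 above the median of the other LUN arrays. Without LUN 7, where 12.6% of probes were called, all 3 were again past the threshold. Cdkn1c, a cell cycle inhibitor, was then a further one (-0.24, limma adjusted p = 0.029). Without LUN 1 and LUN 7, where 9.54% were called, Slc13a4 and Slc29a4 passed (limma adjusted p = 0.013 and 0.0257). Igfbp2 and Cdkn1c did not (0.0676 and 0.0572). The summed level of the meninges list, whose genes fell in 9 of 12 cases, ran from -0.21 to 0.67 in CON and from -0.38 to -0.12 in LUN. Slc13a4 and Igfbp2 are known in the meninges too, and the part of that tissue was not tested.

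Genes of the pathways of the members were read from the same fit, in which 15% of all probes were called. In 3 lists a single gene passed, a share near that background and no result about the pathway. Of 6 thyroxine and retinol handling genes, which serve the cargo of Ttr, only Slco1c1, a thyroxine transporter, rose, by 0.20 (adjusted p = 0.0346), and 0 fell. Of 7 klotho and fibroblast growth factor genes, Fgfr3, a receptor, rose by 0.60 (adjusted p = 0.0412) and 0 fell. Of 8 BMP and Wnt partners of Sostdc1, the ligand Bmp7 fell by 0.27 (adjusted p = 0.0488) and 0 rose. Without LUN 7 none of Slco1c1, Fgfr3 and Bmp7 passed (adjusted p = 0.064, 0.0678 and 0.0865). All 4 folate handling genes failed the test, from -0.17 for the proton-coupled folate transporter Slc46a1 to -0.04 for Mthfd1. The same held for 8 genes around autotaxin, from -0.27 for the lipid phosphatase Plpp2 to 0.05 for the receptor Lpar3, and for 8 genes of prolactin receptor signalling, from -0.22 for Stat3 to 0.29 for Socs2, a feedback inhibitor. These 2 lists surround Enpp2 and Prlr and stand in for neither. On LUN 7 the medians of these 6 lists were between -0.07 and 0.09 from the other LUN arrays, where the members were 1.25 above them.

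The remaining lists covered other cells that the block could hold. Over all tested probes 8.08% were called lower and 6.92% higher, so small counts in short lists lie near the background. Oligodendrocyte genes fell in 2 of 10 cases, and red cell genes in 5 of 5. Endothelial genes rose in 1 and fell in 2 of 7, ependyma and tanycyte genes fell in 1 of 9, and habenula genes changed in 0 of 4. Of 8 named pituitary genes 1 was tested, Cga, the shared glycoprotein hormone subunit, which differed by -0.82 (adjusted p = 0.0514).

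The second question was how far the members followed Ttr from mouse to mouse within the groups. A fit with group and the Ttr value as terms gave each probe a slope, its change per log2 unit of Ttr. Slopes were above 0 for all 5 other tested members and for 46.1% of probes. The slope was 0.13 for Kl, 0.12 for Sostdc1, 0.12 for Calml4, 0.09 for Otx2 and 0.08 for Clic6. None passed the threshold (limma adjusted p of 0.448, 0.448, 0.388, 0.534 and 0.572), and 0 probes of 14869 did, 0% (1375 had an unadjusted p under 0.05). Ordered by p, Calml4 was number 14 of 14869, Kl number 77 and Sostdc1 number 81, while Otx2 was number 1285 and Clic6 number 1829.

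The slopes rested in large part on LUN 7. Without it they were 0.06 for Calml4, 0.05 for Kl, 0.03 for Sostdc1, 0.02 for Otx2 and -0.01 for Clic6. Without LUN 1 and LUN 7 that of Calml4 was 0.11 (adjusted p = 0.337) and that of Kl was 0.00. On these arrays CON 4 and CON 1, which had the highest Calml4 after LUN 7, at 6.33 and 6.12, also had high Ttr, at 10.70 and 9.08.

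**Figure D4:**
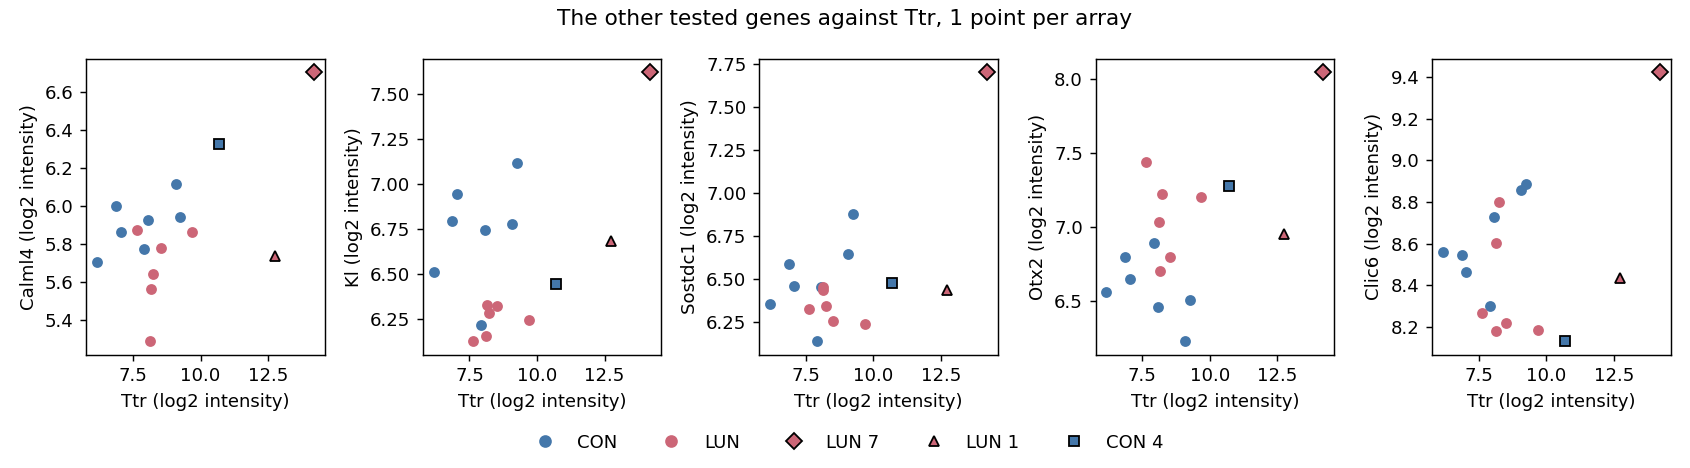
Log2 intensity of 5 choroid plexus genes (vertical axes) against that of Ttr (horizontal axes), with 1 point per array, CON in blue and LUN in red. LUN 7 is at the upper right of every panel, with Ttr at 14.19, and LUN 1, with Ttr at 12.74, lies at the height of the arrays with low Ttr.

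With Ttr as a term, 0 of the 5 other members passed the threshold for LUN against CON, where 10.5% of probes did. The differences were -0.43 for Kl (adjusted p = 0.0838), -0.33 for Calml4 (adjusted p = 0.0651) and 0.37 for Otx2 (adjusted p = 0.17). For Clic6 and Sostdc1 the difference was -0.16 each.

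Likeness among the members was measured by Pearson's r over the 16 arrays after subtracting the mean of each group, as a description without a test. The arrays share the normalization, and LUN 7 is in every value. All 15 pairs of the 6 members had r above 0, from 0.249 to 0.919 with a median of 0.668. Kl and Sostdc1 were the closest pair (r = 0.919), and Clic6 and Otx2 the farthest (r = 0.249). Without LUN 7, 10 of 15 pairs were above 0, with a median of 0.104 and a range from -0.506 to 0.743. Kl, Sostdc1 and Clic6 stayed together on the 15 arrays, with r of 0.743 for Kl and Sostdc1, 0.548 for Clic6 and Sostdc1 and 0.469 for Kl and Clic6. Otx2 went against each of the 3, with r of -0.506 for Kl, -0.459 for Clic6 and -0.358 for Sostdc1. As a set, then, the genes moved together through 1 array and fell into separate patterns on the rest.

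The 10 genes most like Ttr among 10243 on 16 arrays were Septin10 (r = 0.815), Kcne2 (0.815), Cd47 (0.812), Sfxn5 (0.8), Lrpprc (0.788), Zfp780b (0.774), Mtch2 (0.773), Ecrg4 (0.767), Trim23 (0.765) and Msx1 (0.763). Kcne2, Ecrg4 and Msx1 of these are on the list of other choroid plexus genes. Calml4 was number 14 in this order (r = 0.747), Kl number 54, Sostdc1 number 56, Otx2 number 473 and Clic6 number 650. Without LUN 7 only Septin10 (r = 0.795) and Mtch2 (r = 0.855) of the 10 were again among the 10 most like Ttr, and Calml4 was number 419.

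When the mean of Kl, Clic6, Otx2, Sostdc1 and Calml4, each standardized over the arrays, took the place of Ttr in the fit, 1 of 14865 probes passed, 0.00673%. It was the probe of Kcne2 (adjusted p = 0.0333). Ecrg4 was second in that order (adjusted p = 0.0804) and Ttr number 13 (adjusted p = 0.664). Kcne2 was highest on LUN 7, at 6.32, with CON 4 next at 5.35. The members averaged here also had their highest values on LUN 7. The fit on their mean was not repeated without LUN 7, so whether the call of Kcne2 rests on that array was not tested.

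The genes nearest to Otx2 were others, named after their values were seen. They were Zic4 (r = 0.884), Snx10 (0.867) and Gpr151 (0.861), the last a receptor of habenula neurons. Without LUN 7 Gpr151 was number 6 in likeness to Otx2 (r = 0.843), and Ripk4, Ppm1e and Zic4 were the nearest (0.889 each). The 3 arrays highest in Otx2 were LUN 7, LUN 6 and CON 4, and these were also the 3 highest in Gpr151, at 8.77, 8.53 and 8.68. LUN 6 had the lowest Ttr of the LUN arrays, 7.64. The part of habenula tissue in the Otx2 values was not tested.

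The genes nearest to Clic6 without LUN 7 were Hap1 (r = 0.873), Spag16 (0.844), Panx1 (0.835), Slc32a1 (0.829), the vesicular GABA transporter, and Isl1 (0.827), a homeobox gene of hypothalamic neurons. Clic6, Kl and Sostdc1 each had their highest CON value on CON 3, where the summed level of the hypothalamus list was the highest of 16 arrays, 0.52. Their lowest CON values were on CON 4 for Clic6 and on CON 8 for Kl and Sostdc1, the CON arrays where that list was lowest, at -0.23 and -0.19. Whether hypothalamic cells account for any of these values was not tested.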

How the data were processed

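Hypothalamic RNA of 8 CON and 8 LUN mice was measured on 16 arrays, and the group of each array was taken from its label. The authors deposited intensity values read out with GenomeStudio, averaged over the beads of a probe and left without normalization between arrays. A detection p-value, deposited beside each signal, compares it with the negative controls of the array. The deposited log2 values were quantile-normalized by the authors and centred on each probe's median, and served as an alternative only. From the intensities, background was corrected by normexp from the detection p-values (offset 16), followed by quantile normalization and log2, with limma 3.58.1 in R 4.3.3.

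Of 25697 probes, 23978 had 1 gene symbol and 1719 none in the platform annotation, and 0 had several. Symbols were updated by Entrez ID, save for 16 probes. Testing was limited to probes with a detection p-value below 0.05 on 8 or more arrays, and a gene was represented by its brightest tested probe. Fits used lmFit and eBayes, two-sided, with group alone, or with group and the Ttr value as terms, and Benjamini-Hochberg adjustment over all tested probes. The fits were tested on simulated data. "Rose" and "fell" are used of genes past an adjusted p of 0.05.

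The members and the gene lists were chosen with earlier results of these data known. Named genes were all members, for the lists described by gene the 3 largest changes past the threshold or else the extremes, and the 10 genes most like Ttr, with others said to be chosen after their values were seen. The alternatives planned were other filters, scalings, offsets and tests, BeadChip and replicate number as blocks, each BeadChip alone, array weights and each array left out. Leaving out LUN 1 and LUN 7 together, and every alternative of the group term beside Ttr, were chosen after seeing the data. The number of arrays limits the precision. Replicate numbers did not pair the arrays. The correlations of Enpp2 and Prlr with Ttr were not run, since neither gene had a named probe.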

Additional observations from a re-analysis of the deposited data

Results flagged for a closer look

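In 5 of 18 sets of 8 arrays examined, the highest array was separated from the next by a gap, relative to the range, above Dixon's 95% critical value, and each time this array was LUN 7. The values were 7.62 for Kl (next LUN array 6.69), 7.7 for Sostdc1 (next 6.46), 6.71 for Calml4 (next 5.88), and 5.94 and 5.59 for the 2 probes of Folr1 (next 4.7 and 4.67). The 5 sets share 1 array, so they are not 5 separate observations. LUN 7 was already seen to be the highest array in these genes. The rate of about 1 flagged set in 20 by chance is therefore no measure for them, and the count is a description only. For Folr1 the other LUN arrays lay below detection, so the gap there says only that LUN 7 was detected. Ttr, Clic6 and Otx2 on LUN 7, although highest, were not separated in this way, in Ttr because LUN 1 was also high.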

How the results depend on the processing

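Ttr, Otx2 and all slopes on Ttr but that of Clic6 kept their direction under every alternative. Calls in the LUN against CON fit were 2231, but 4457 with median scaling, 8574 without normalization between arrays, 8 on BeadChip 1, 195 on BeadChip 2, 200 with a limit of 1.5-fold and 1418 without LUN 1 and LUN 7, and 1834 to 2561 with 1 array left out. The methods' t-test called 2177 probes after Benjamini-Hochberg adjustment and 0 members. The member genes past the threshold were 0, but 1 for probes detected on all 16 arrays, signals as given, an offset of 50 and array weights (Otx2 each time), 1 without normalization or without LUN 1 and LUN 7 (Kl), and 0 to 1 with 1 array left out. Probes past the threshold for the Ttr term were 0, and 0 with any 1 array left out. Without normalization they were 5 (Calml4 among them, adjusted p = 0.038). With the mean of the other members as the reference there was 1, in a fit for which no array was left out. With Ttr as a term the group calls were 1555, but 3372 with median scaling, 9268 without normalization, 0 and 2 on BeadChips 1 and 2, and 781 (without LUN 6) to 1792 with 1 array left out. Cutting a BeadChip leaves 8 arrays; the cause of the other shifts was not tested.

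With the replicate block, which is no pairing by the labels (same-numbered arrays had correlations from -0.288 to 0.098, and 1 of 8 pairs matched best), the group calls were 1711, those with Ttr as a term 427, and members past the threshold 0.

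Differences near 0 changed sign. Sostdc1 was -0.051 with median scaling, -0.21 without normalization, -0.25 on BeadChip 1, -0.16 without LUN 1 and LUN 7, and -0.14 to 0.08 with 1 array left out. Clic6 was -0.18 to 0.002 with 1 array left out. Kl was 0.033 on BeadChip 2 and 0.021 for its undetected probe, and Calml4 was 0.13 on BeadChip 2. The slope of Clic6 was -0.06 on BeadChip 1, -0.031 without LUN 1 and LUN 7, and -0.01 to 0.11 with 1 array left out. Weak signal limits Folr1 and the second Kl probe, which lay at background.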
